A study of Mus musculus with 12 samples.

Results

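The respiratory chain subunit genes were taken as every probe set whose single gene symbol began with Ndufa, Ndufb, Ndufc, Ndufs, Ndufv or Uqcr, equalled Sdha, Sdhb, Sdhc or Sdhd, or began with Cox4, Cox5, Cox6 or Cox7, with Cox7a1 left out. This rule used names only and took 141 probe sets of 69 genes, out of 45037 probe sets and 18193 named genes on the array. It also caught 8 Ndufaf genes, whose products assemble complex I without being part of it, and Ndufa4l2, a relative of a complex IV subunit that is not counted as a subunit here. Of these, 128 probe sets of 66 genes lay above the median of their array on at least 3 of the 12 arrays and were tested. Ndufb4, Cox4i2 (the lung form of subunit 4) and Cox7b2 had no tested probe set, and the 13 probe sets below that filter all lay at or under 6 on the log2 scale. The tested genes comprised 6 core and 27 accessory subunits of complex I, 8 assembly factors, 4 genes of complex II, 8 of complex III, 12 of complex IV and Ndufa4l2.

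The arrays measured mammary gland RNA of ovariectomized BALB/c females, 10 weeks old. The groups were progesterone receptor null with 24 h of progesterone, wild type with 24 h, progesterone receptor null with 8 h and wild type with 8 h, with 3 arrays in each group and RNA of 3 pooled mice on an array. All mice, wild type included, were given 100 ng 17β-estradiol subcutaneously for 24 h and then 100 ng 17β-estradiol with 2.5 ug progesterone, so no group went without progesterone, and the mice of the later time also had the longer estradiol treatment. The null allele and any promoter that drives it are not described in the labels. Correlations of arrays within groups ran from 0.965 to 0.993 and array medians from 5.84 to 5.91. Of the tested Pgr probe sets, which target the receptor gene itself, one lay at 7.46 ± 0.35 in null and 7.82 ± 0.29 in wild type glands at 24 h (log2, SD, n = 3 each, limma adjusted p = 0.45), where the genotypes overlapped, and at 8.89 ± 0.29 in null and 9.94 ± 0.06 in wild type glands at 8 h (adjusted p = 0.012). Another was higher in null glands at both times (log2 difference 2.10 at 24 h and 1.97 at 8 h), so Pgr signal checked the genotype labels only in part. Markers of epithelium (mean log2 level 8.75 to 9.96 over all arrays) and of white adipocytes (12.9 to 13.19) were present on every array.

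The respiratory chain passes electrons from NADH, through complex I, and from succinate, through complex II, to ubiquinone. Complex III hands them on to cytochrome c, and complex IV uses them to reduce oxygen, while complexes I, III and IV pump protons whose return drives ATP synthase. Most subunits are encoded in the nucleus, and the mammary fat pad holds white adipocytes, epithelium and, at some sites, brown adipocytes, which are densely packed with mitochondria. In whole glands, fewer cells of a type and less RNA per cell cannot be told apart.

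Promoters of 56 member genes were found in the RefSeq table of GRCm38.p6, in 58 windows of 300 bases that reach from upstream of the start of transcription to just past it. Short motifs of regulators of nuclear genes for mitochondrial proteins were searched on both strands. The core of the NRF1 motif, GCGCATGC, was found in 8 of the 58 windows (13.8%), against 2.71% of all 32851 windows in the table, and the core of the GABPA motif, CCGGAAG, in 12 (20.7%) against 8.86%. The YY1 core, AAGATGGC, was found in 7 windows (12.1%) against 2.75%, and the motif of estrogen-related receptors, TCAAGGTCA, in 1 (1.72%) against 0.423%. The core of a progesterone response element, ACANNNTGT, was in 0 member windows and in 6.85% of all windows. The windows of all genes were not matched to the members for base composition or gene class, and differences in share were not tested. Letters alone do not show that a factor binds. Below are the promoters of Uqcr10, the gene with the largest differences, of Ndufaf4, which differed over time, of Cox6a1, the member next to the threshold at 8 h, of Sdhd, which holds a GABPA and the only estrogen-related receptor match, and of Ndufs4, which holds a YY1 match. All are given 5′ to 3′ on the strand of the gene, and capitals mark the motif matches.
Uqcr10, chr11:4704295-4704594, minus strand: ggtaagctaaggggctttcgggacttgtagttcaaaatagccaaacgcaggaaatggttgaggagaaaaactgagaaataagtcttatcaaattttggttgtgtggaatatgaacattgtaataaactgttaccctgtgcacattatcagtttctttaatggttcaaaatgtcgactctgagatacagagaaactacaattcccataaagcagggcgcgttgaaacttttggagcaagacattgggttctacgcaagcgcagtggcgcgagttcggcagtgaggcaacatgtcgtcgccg
Ndufaf4, chr4:24897833-24898132, plus strand: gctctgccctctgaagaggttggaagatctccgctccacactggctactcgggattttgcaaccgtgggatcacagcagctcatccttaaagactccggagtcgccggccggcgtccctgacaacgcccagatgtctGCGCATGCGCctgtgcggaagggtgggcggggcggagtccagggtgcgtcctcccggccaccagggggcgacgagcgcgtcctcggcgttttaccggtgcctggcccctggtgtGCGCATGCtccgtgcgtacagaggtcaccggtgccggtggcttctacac
Cox6a1, chr5:115348909-115349208, minus strand: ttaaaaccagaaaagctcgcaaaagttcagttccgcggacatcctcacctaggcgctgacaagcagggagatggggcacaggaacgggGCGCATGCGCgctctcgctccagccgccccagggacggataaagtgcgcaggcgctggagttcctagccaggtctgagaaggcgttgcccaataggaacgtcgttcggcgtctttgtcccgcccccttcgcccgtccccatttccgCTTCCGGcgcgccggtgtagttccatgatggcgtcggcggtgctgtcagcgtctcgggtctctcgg
Sdhd, chr9:50603800-50604099, minus strand: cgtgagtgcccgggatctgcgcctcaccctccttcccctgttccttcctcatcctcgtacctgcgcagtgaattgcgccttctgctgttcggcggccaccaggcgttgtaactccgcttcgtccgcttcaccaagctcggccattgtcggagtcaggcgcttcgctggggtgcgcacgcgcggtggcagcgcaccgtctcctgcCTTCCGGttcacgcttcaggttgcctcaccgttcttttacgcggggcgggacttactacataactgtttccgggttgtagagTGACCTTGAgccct
Ndufs4, chr13:114388045-114388344, minus strand: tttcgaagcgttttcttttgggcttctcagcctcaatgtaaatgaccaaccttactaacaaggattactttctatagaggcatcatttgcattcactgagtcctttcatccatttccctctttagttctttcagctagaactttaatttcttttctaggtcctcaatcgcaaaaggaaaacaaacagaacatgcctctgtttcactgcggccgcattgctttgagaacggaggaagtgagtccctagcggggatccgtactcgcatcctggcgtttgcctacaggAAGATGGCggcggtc
The Uqcr10 window held none of the motifs. In Ndufaf4 and Cox6a1 the NRF1 core was matched on both strands at overlapping positions, which gives a longer run of capitals, and Ndufaf4 held a further NRF1 match nearer the start. The second run of capitals in Cox6a1 is the GABPA core read on the opposite strand, as are both matches in Sdhd.

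Respiratory chain transcripts lay slightly above wild type in null glands at 8 h of progesterone, in nearly every complex, but the difference of a single probe set was small and passed the test for Uqcr10 only. The difference (null minus wild type) was above 0 for 117 of 128 member probe sets, where 45.9% of all 23709 tested probe sets were. Its median was 0.18 on the log2 scale (1.13-fold, middle 50% from 0.10 to 0.24), beside a median of -0.02 over all tested probe sets, and the median standard error of a member was 0.10. The call rule was a limma adjusted p below 0.05 over all tested probe sets. By this rule 2 member probe sets, both of Uqcr10, rose and 0 fell (1.56% of the members), while 3.07% of all tested probe sets were called. At an unadjusted p below 0.05, 47 members differed (36.7%, against 15.6% of all). All 3 null arrays lay above all 3 wild type arrays for 57 members (44.5%, against 10.7% of all). None lay below without overlap, against 13.7% of all. With 1 probe set per gene, 61 of 66 genes lay above 0, with a median of 0.16, and limma called 0 (24 at an unadjusted p below 0.05), where 2.82% of all 12004 genes of that fit were called.

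At 24 h most members again lay above wild type. The difference was above 0 for 116 of 128 members, against 45.6% of all, with a median of 0.14 (1.10-fold, middle 50% from 0.09 to 0.20), beside -0.02 over all tested probe sets. limma called 0 members, where 1.11% of all tested probe sets were called, and 23 differed at an unadjusted p below 0.05 (18%, against 13.7% of all). The groups did not overlap for 27 members with null above (21.1%, against 5.53% of all). With null below they did not overlap for 2, a dim probe set of the accessory subunit Ndufb2 and a dim one of Cox7c, against 9.74% of all. At both times 19 member probe sets (14.8%) lay above wild type without overlap, against 1.99% of all tested. They belonged to Cox5b, Cox6a1, Ndufa1, Ndufa3, Ndufa4, Ndufa6, Ndufa9, Ndufab1, Ndufb5, Ndufb6, Ndufc1, Ndufs4, Ndufs8, Uqcr10 and Uqcrc2, which encode parts of complexes I, III and IV. The change of the genotype difference between the times had a median of -0.04 over the members, and limma called it for 2 members, both of Uqcr10, and for 0.143% of all tested probe sets.

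**Figure D1:**
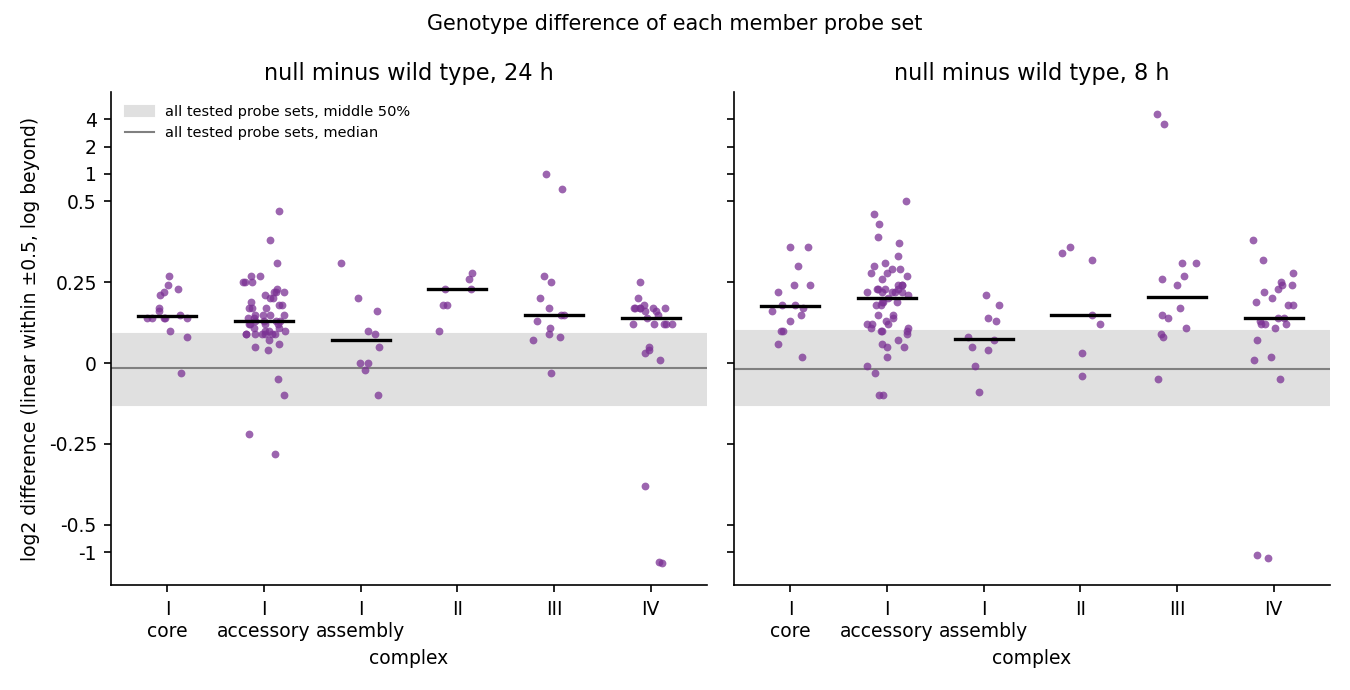
Genotype difference of each tested member probe set (null minus wild type, log2, linear within ±0.5 and logarithmic beyond) at 24 h on the left and at 8 h on the right, by complex and without Ndufa4l2. Points are probe sets, black bars are medians, and the grey band and line give the middle 50% and the median of all tested probe sets. Most points of each complex sit above the grey line at both times, and 2 Uqcr10 probe sets stand apart at 8 h.

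The 128 members moved together across the pools of a group. The averages of other mitochondrial gene lists, given further below, shared the pool pattern. Averaged over the members, each array's deviation from the mean over 12 arrays was 0.22, 0.02 and 0.04 in null pools 1 to 3 at 24 h, against 0.04, 0.04 and -0.18 in wild type pools. At 8 h it was 0.25, 0.01 and -0.03 in null pools, against -0.08, -0.13 and -0.20 in wild type pools. The averages of the genotypes overlapped at 24 h and did not at 8 h. Without the 3 Uqcr10 probe sets they overlapped at 8 h too, where the averages ran from -0.05 to 0.23 in null pools and from -0.16 to -0.04 in wild type pools. Pool 1 was the highest null array for 112 members at 24 h (87.5%, where 36.7% of all tested probe sets had it highest) and for 121 at 8 h (94.5%, against 39.9% of all). Wild type pool 3 was the lowest of its group for 117 members at 24 h (91.4%, against 25.8% of all). Without null pool 1 the 8 h median was 0.10, with 99 members above 0, beside 48.2% of all tested probe sets, and 58 members still lay above wild type without overlap (45.3%, against 17.0% of all). Without null pool 1 the 24 h median was 0.08 with 109 members above 0, and without wild type pool 3 it was 0.08 with 106 above 0.

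Markers of brown adipocytes, among them the complex IV genes Cox7a1 and Cox8b that are not members, moved with the members across arrays. Of 9 such markers 8 were tested (Cpt1b was not), and their mean log2 level ran from 9.98 to 10.85 in null and from 9.11 to 10.33 in wild type glands at 24 h, and from 9.98 to 10.79 in null and from 8.77 to 9.64 in wild type glands at 8 h. At 8 h 3 of the 8 rose in null glands, namely Ucp1, which uncouples respiration from ATP synthesis (log2 difference 1.97, adjusted p = 0.022), the lipid droplet gene Cidea (1.66, adjusted p = 0.017) and the fatty acid carrier Fabp3 (2.33, adjusted p = 0.042). At 24 h 0 of the 8 were called, with 2 at an unadjusted p below 0.05. Of the 8, 7 lay above 0 at each time, with medians of 0.63 at 24 h and 1.29 at 8 h. At each time 1 lay below 0 (-0.38 at 24 h and -0.64 at 8 h). As for the members, null pool 1 had the highest average of the brown adipocyte markers at either time (deviations of 0.88 at 24 h and 0.83 at 8 h), and wild type pool 3 the lowest (-0.86 and -1.2). Ucp1 lay between 9.85 and 12.97 on all 12 arrays, and Dio2, the lowest of these markers, between 5.25 and 7.72. Their part in the result of the members was not tested. Skeletal muscle markers, 13 of 13 tested, pointed the other way by genotype, with median differences of -1.50 at 24 h and -1.76 at 8 h. Of their 18 probe sets 0 were called (2 and 4 at an unadjusted p below 0.05). Across pools, null pool 1 also had the highest muscle average of the null pools (0.53 at 24 h and 0.37 at 8 h). Among wild type pools, pool 2 had the lowest muscle average (-0.38 and -0.01), where pool 3 was lowest for the members. The part of muscle in the members' result was not tested. White adipocyte markers had a median difference of 0.01 at both times and 0 called (0 and 2 of 9 probe sets at an unadjusted p below 0.05). Of 15 epithelial marker probe sets 6 fell at 24 h (40%, against 1.11% of all called), mainly of Cldn3 and also of Cldn7 and Cdh1. At 8 h 4 rose (26.7%, against 3.07% of all called), mainly of Krt8 and also of Krt18. The epithelial medians were -0.99 at 24 h and -0.04 at 8 h. At an unadjusted p below 0.05, 10 and 8 of the 15 differed, beside 13.7% and 15.6% of all tested probe sets. Leukocyte and endothelial markers had medians of 0.01 and -0.07 at 24 h and of -0.29 and 0.19 at 8 h. For genotype 0 were called (0 and 0 at 24 h, 0 and 1 at 8 h at an unadjusted p below 0.05). At 8 h 4 of 4 endothelial probe sets lay above wild type without overlap, against 10.7% of all, and 0 did at 24 h. Null pool 1 had the lowest leukocyte average of the null pools at both times (-0.50 at 24 h and -0.92 at 8 h).

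**Figure D2:**
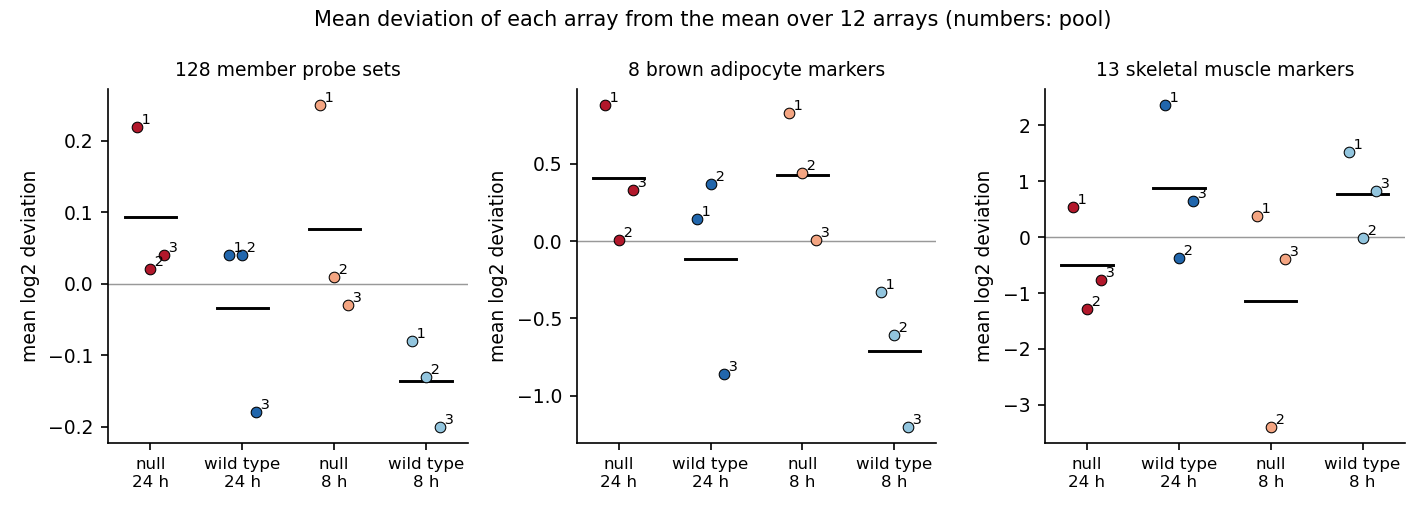
Mean log2 deviation of each array from the mean over 12 arrays, for the 128 member probe sets, 8 brown adipocyte markers and 13 skeletal muscle markers. Points are arrays with their pool number, bars are group means, and the scales differ between panels. Null pools 1 are the highest member averages (0.22 and 0.25) and also the highest brown adipocyte averages.

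**Figure D3:**
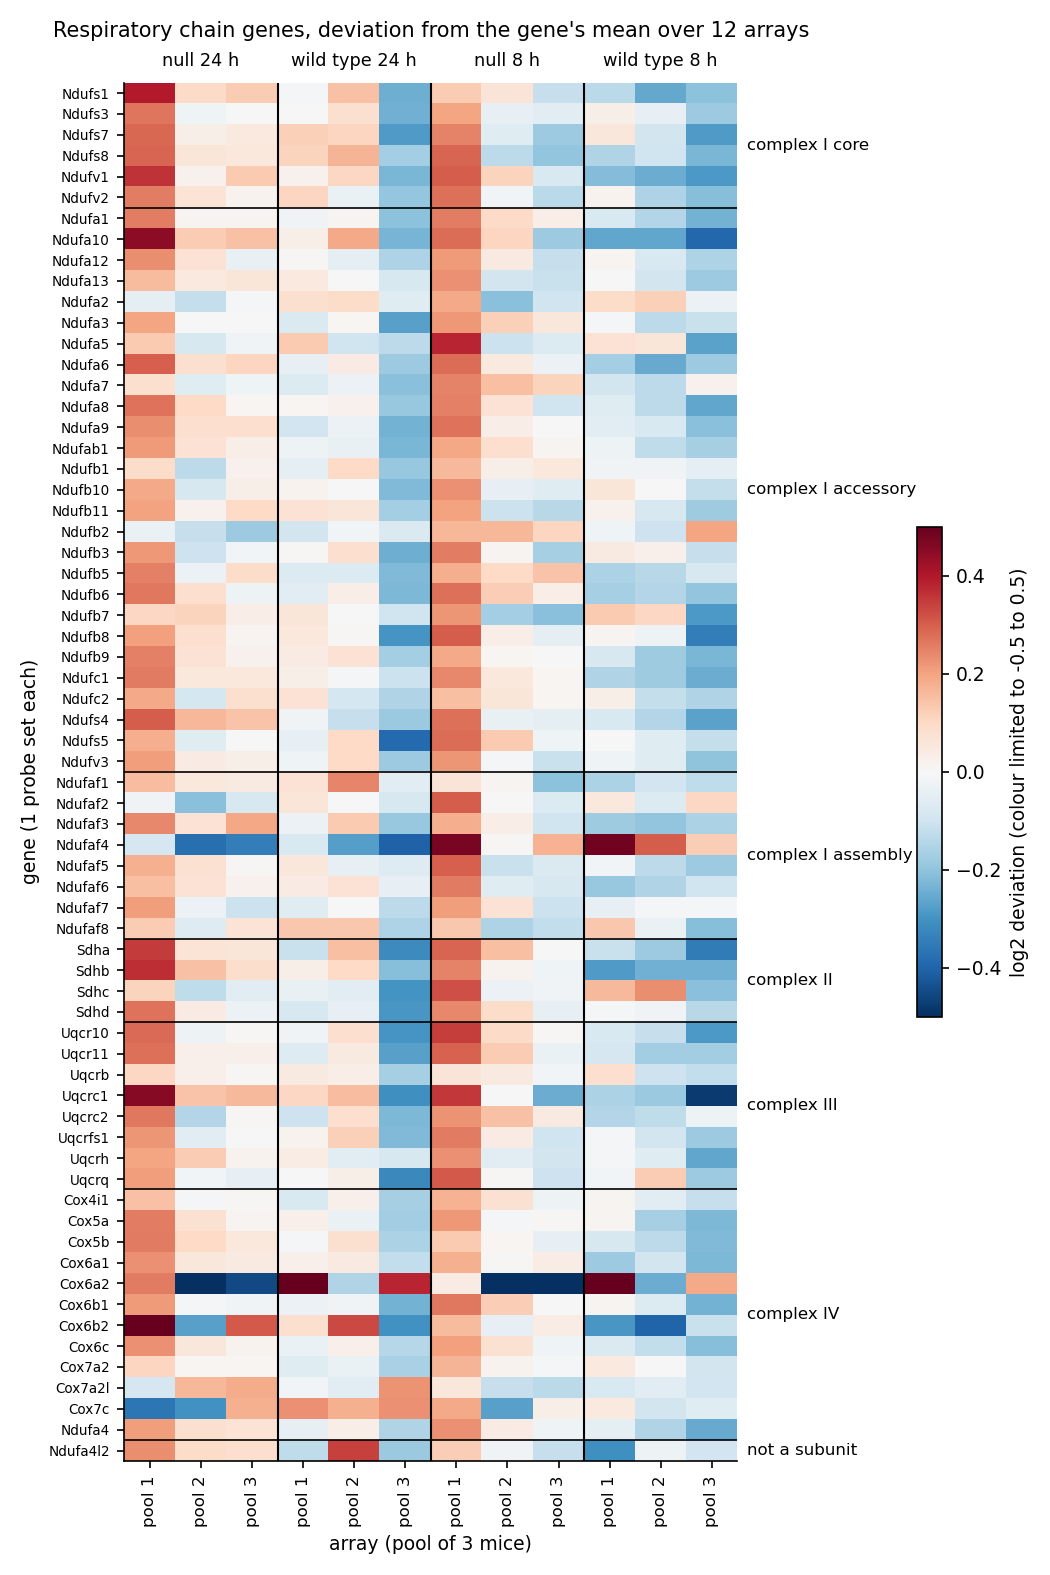
Log2 deviation of 66 genes (rows, 1 probe set each, the one with the highest mean) from their mean over 12 arrays (columns), by complex and group. Null pool 1 is the highest of its group at both times in 61 of the 66 rows, and wild type pool 3 the lowest of its group at both times in 47.

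The core subunits of complex I carry the flavin and iron-sulfur clusters that move electrons from NADH to ubiquinone. None of their 16 probe sets was called in any of the 5 comparisons by limma. Of all tested probe sets, 1.11% were called for genotype at 24 h and 3.07% at 8 h. For genotype at 8 h, 4 of the 16 had an unadjusted p below 0.05 (25%, against 15.6% of all). At 24 h 15 of 16 lay above 0, with a median of 0.15, and at 8 h 16 of 16, with a median of 0.17. Ndufv1, which binds NADH and the flavin, had 12.79, 12.45 and 12.56 in null and 12.45, 12.53 and 12.20 in wild type glands at 24 h (log2), and 12.73, 12.54 and 12.35 in null and 12.21, 12.18 and 12.14 in wild type glands at 8 h. The genotypes overlapped at 24 h and were apart at 8 h. The differences were 0.21 at 24 h (adjusted p = 0.47) and 0.36 at 8 h (SE 0.12, adjusted p = 0.14). Ndufs1, the largest iron-sulfur subunit, differed by 0.24 at 24 h (adjusted p = 0.37) and 0.22 at 8 h (adjusted p = 0.38). Ndufs3, Ndufs7, Ndufs8 and Ndufv2 had differences from -0.03 to 0.22 at 24 h and from 0.02 to 0.24 at 8 h over their probe sets.

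The accessory subunits surround and stabilise the core of complex I. Their 55 probe sets had medians of 0.13 at 24 h and 0.20 at 8 h, and limma called 0 at either time. At an unadjusted p below 0.05, 12 and 22 differed (21.8% and 40%, against 13.7% and 15.6% of all). Ndufb5, a membrane arm subunit, came nearest at 8 h. One of its probe sets had 12.15, 11.94 and 11.92 in null and 11.85, 11.79 and 11.54 in wild type glands at 24 h, and 12.05, 11.83 and 11.82 in null and 11.53, 11.44 and 11.55 in wild type glands at 8 h. The genotypes did not overlap at either time, with mean differences of 0.27 at 24 h (adjusted p = 0.25) and 0.39 at 8 h (1.31-fold, SE 0.10, adjusted p = 0.060). The other Ndufb5 probe set differed by 0.22 and 0.27 (adjusted p = 0.22 and 0.092). Ndufc1, also of the membrane arm, differed by 0.15 at 24 h and 0.29 at 8 h (adjusted p = 0.45 and 0.083). Ndufs4, whose loss in humans causes Leigh syndrome, had the smallest p of the accessory subunits at 24 h, with 10.76, 10.62 and 10.60 in null and 10.44, 10.34 and 10.27 in wild type glands (0.31, SE 0.10, adjusted p = 0.19). The largest differences were at 2 dim probe sets of Ndufab1, the mitochondrial acyl carrier protein, with 0.47 at 24 h for one and 0.51 at 8 h for the other (adjusted p = 0.30 and 0.15), while its brightest probe set differed by 0.21 and 0.20.

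Assembly factors of complex I help to build it but do not remain in it. They had medians of 0.07 at 24 h and 0.08 at 8 h over 10 probe sets, with 0 called by limma. At an unadjusted p below 0.05, 1 differed at each time (10%, against 13.7% and 15.6% of all). The largest were 0.31 for a probe set of Ndufaf4 at 24 h (adjusted p = 0.23) and 0.21 for Ndufaf3 at 8 h (adjusted p = 0.31). Ndufaf6 differed by 0.05 at 24 h and 0.18 at 8 h, and Ndufa4l2 by 0.13 and 0.14, neither called.

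Complex II, succinate dehydrogenase, is shared with the citric acid cycle and is encoded in the nucleus as a whole. Its 7 probe sets had medians of 0.23 at 24 h and 0.15 at 8 h, with 0 called by limma. At an unadjusted p below 0.05, 3 differed at each time (42.9%, against 13.7% and 15.6% of all). Sdhb, the iron-sulfur subunit, had 13.01, 12.79 and 12.73 in null and 12.67, 12.74 and 12.43 in wild type glands at 24 h, and 12.89, 12.66 and 12.62 in null and 12.36, 12.40 and 12.40 in wild type glands at 8 h. The genotypes overlapped slightly at 24 h (difference 0.23, adjusted p = 0.35) and were apart at 8 h (0.34, SE 0.10, adjusted p = 0.11). Sdha, the flavin subunit, differed by 0.26 at 24 h and 0.36 at 8 h (adjusted p = 0.41 and 0.19) at its brightest probe set. The membrane anchors Sdhc and Sdhd were at 0.10 and 0.23 at 24 h and at 0.03 and 0.15 at 8 h, and a further Sdhc probe set was at 0.28 at 24 h (adjusted p = 0.23).

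Complex III, the cytochrome bc1 complex, held the only called genotype differences. Uqcr10 encodes a small subunit of it, and 3 probe sets carry its name. The first had 10.02, 9.47 and 9.40 in null and 8.64, 9.33 and 7.93 in wild type glands at 24 h. At 8 h it had 10.18, 9.71 and 9.63 in null glands and 5.56, 5.25 and 5.18 in wild type glands. The 3 wild type arrays of 8 h thus stood far below all other 9, and under the median of their own array, which was the floor of the filter. A fold against them is therefore given as a bound, with these values set to the array median, by which the null level at 8 h was at least 15.8 times the wild type level (log2 difference 3.98). The fit on the values as deposited gave 4.51 (SE 0.30, adjusted p = 2.1e-05). At 24 h, where no array lay under its median, the null level was 2 times the wild type level (1.00, SE 0.30, adjusted p = 0.16).

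A second Uqcr10 probe set gave the same order. It had 9.91, 9.68 and 9.61 in null and 9.09, 9.55 and 8.52 in wild type glands at 24 h, and 10.15, 9.86 and 9.63 in null and 6.05, 6.69 and 6.19 in wild type glands at 8 h. The differences were 0.68 at 24 h (adjusted p = 0.24) and 3.57 at 8 h (11.9-fold, SE 0.24, adjusted p = 2.2e-05). These 2 probe sets carry the name of the same gene and are not taken as independent, and their target sequences were not compared. Wild type glands at 24 h were the most variable group for both (SD 0.70 and 0.51 log2), with pool 2 near the null level and pool 3 lowest. Without wild type pool 2 of 24 h, limma called the first probe set at 24 h too (1.35, adjusted p = 0.022). The difference between genotypes was smaller at 24 h than at 8 h, with changes of -3.51 and -2.89 (log2, adjusted p = 0.013 for each), the first of which was -2.98 with the 3 low values at the array median. Without any 1 of the 12 arrays the 8 h differences stayed between 4.34 and 4.63 and between 3.43 and 3.76.

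The third and brightest Uqcr10 probe set did not show this. It had 12.17, 11.86 and 11.89 in null and 11.87, 11.97 and 11.59 in wild type glands at 24 h, and 12.23, 11.98 and 11.89 in null and 11.81, 11.77 and 11.60 in wild type glands at 8 h. Its differences were 0.17 at 24 h (adjusted p = 0.60) and 0.31 at 8 h (SE 0.12, adjusted p = 0.25), close to those of the other complex III genes. The call on Uqcr10 therefore holds for 2 of its 3 probe sets and not for the gene's brightest signal, and which transcripts each probe set detects was not analysed here.

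**Figure D4:**
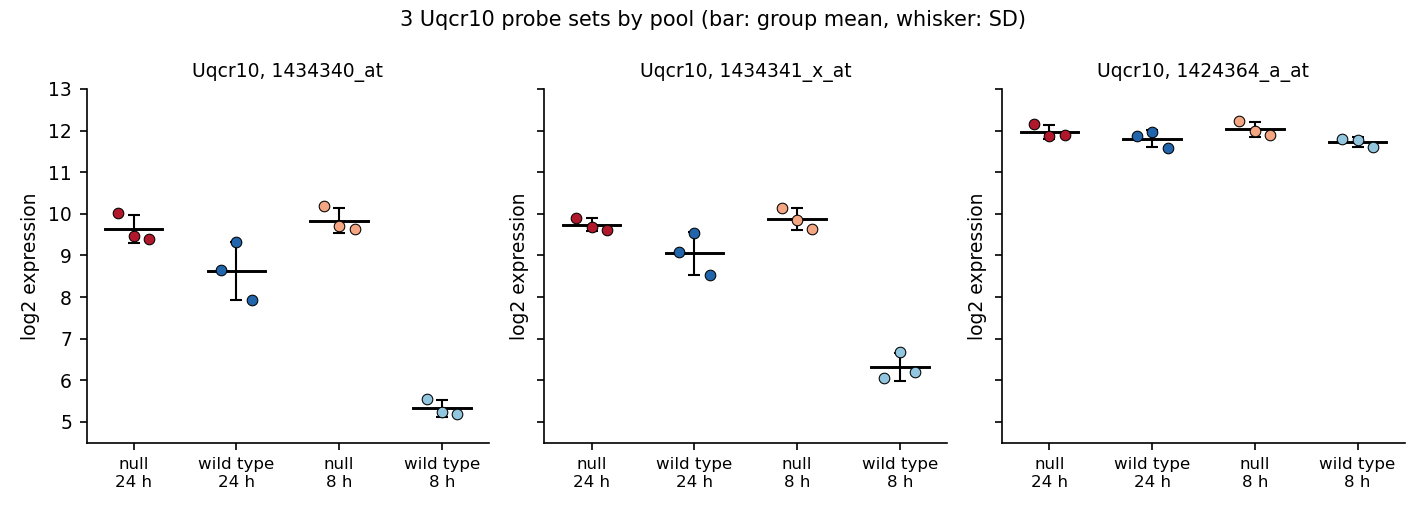
Log2 expression of the 3 Uqcr10 probe sets by group. Points are pools, bars are group means and whiskers SD (n = 3). In 2 of them the wild type arrays at 8 h lie between 5.18 and 6.69, below all others, while the third lies between 11.59 and 12.23 in every group.

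Leaving Uqcr10 out, the remaining 125 member probe sets had medians of 0.14 at 24 h and 0.17 at 8 h. At either time limma called 0 for genotype. At an unadjusted p below 0.05, 21 and 44 differed (16.8% and 35.2%, against 13.7% and 15.6% of all). Uqcrc1, a core subunit, differed by 0.27 at 24 h and 0.31 at 8 h (adjusted p = 0.51 and 0.41), Uqcr11 by 0.20 and 0.27 (adjusted p = 0.44 and 0.23), and Uqcrfs1, the Rieske iron-sulfur protein, by 0.08 and 0.15 (adjusted p = 0.82 and 0.58).

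Complex IV, cytochrome c oxidase, has subunits with isoforms that differ between tissues. Cox6a1, the form of subunit 6a in most tissues, had 13.04, 12.80 and 12.81 in null and 12.55, 12.81 and 12.53 in wild type glands at 24 h, and 13.10, 12.98 and 12.91 in null and 12.67, 12.62 and 12.57 in wild type glands at 8 h at 1 of its probe sets. The difference of 0.38 at 8 h (1.30-fold, SE 0.09, adjusted p = 0.051) was the nearest to the threshold of all members outside Uqcr10, and that at 24 h was 0.25 (adjusted p = 0.26). Its brighter probe set differed by 0.12 and 0.24 (adjusted p = 0.49 and 0.11).

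Cox6a2, the form of heart and skeletal muscle, lay on the other side of 0. It had 8.42, 7.13 and 7.71 in null and 10.62, 8.01 and 8.54 in wild type glands at 24 h, and 8.20, 6.47 and 7.45 in null and 9.11, 7.91 and 8.35 in wild type glands at 8 h. The genotypes overlapped, and differences of -1.31 at 24 h and -1.08 at 8 h (SE 0.64, adjusted p = 0.40 and 0.46) were not called. In every group its highest array was pool 1, which also had the highest skeletal muscle average of its group (0.53 in null and 2.36 in wild type glands at 24 h, 0.37 in null and 1.52 in wild type glands at 8 h), and the part of muscle in it was not tested.

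Among the other complex IV genes, Cox5b had differences of 0.17 at 24 h and 0.28 at 8 h at a probe set that was not called (adjusted p = 0.37 and 0.086). Cox4i1, the common form of subunit 4, differed by 0.12 and 0.13, Cox6b1 by 0.16 and 0.23, and Cox7a2, the form of subunit 7a outside muscle, by 0.12 and 0.07 at their brightest probe sets. Cox6b2, the testis form, was at 0.14 and 0.32 with adjusted p = 0.83 and 0.50. Cox7a2l, which takes part in joining complexes III and IV, had values from 0.01 to 0.04 at 24 h and from -0.05 to 0.14 at 8 h over its 3 probe sets. Ndufa4, named for complex I but a subunit of complex IV, differed by 0.17 and 0.24 (adjusted p = 0.39 and 0.18).

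Between 24 h and 8 h few members changed. In null glands limma called 0 higher and 1 lower at 24 h, where 4.40% of all tested probe sets were called, and the members' median was 0.03, beside -0.03 over all. In wild type glands 2 rose, both probe sets of Uqcr10, and 1 fell, where 5.22% of all were called, with a median of 0.06 beside -0.02 over all. Uqcr10 rose by 3.30 (at least 6.83-fold with the 8 h values at the array median, SE 0.30, adjusted p = 0.00038) and 2.74 (6.70-fold, SE 0.24, adjusted p = 0.00031) in wild type glands. In null glands the same probe sets were at -0.21 and -0.15 (adjusted p = 0.73 and 0.77).

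Uqcrb, a small complex III subunit next to the ubiquinone site, was the member that fell in null glands. Its dimmer probe set had 11.68, 11.52 and 11.59 at 24 h and 11.97, 11.94 and 11.82 at 8 h in null glands, and 11.53, 11.51 and 11.40 at 24 h and 11.77, 11.67 and 11.77 at 8 h in wild type glands. The times did not overlap in either genotype. The change was -0.31 in null (SE 0.07, adjusted p = 0.030) and -0.26 in wild type glands (SE 0.07, adjusted p = 0.057). The call in null glands was lost without null pool 2 or 3 of 24 h or any 1 of the 3 null pools of 8 h (adjusted p up to 0.12), and with quantile normalization, centring or only the arrays compared (up to 0.089). The brighter Uqcrb probe set was at 0.01 in null and 0.02 in wild type glands.

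Ndufaf4, an assembly factor of complex I, fell in wild type glands. It had 9.46, 9.17 and 9.20 at 24 h and 10.02, 9.55 and 9.72 at 8 h in null glands, and 9.47, 9.27 and 9.14 at 24 h and 10.03, 9.85 and 9.67 at 8 h in wild type glands. The times did not overlap in either genotype here too. The change was -0.49 in null (SE 0.14, adjusted p = 0.072) and -0.56 in wild type glands (1.47-fold lower at 24 h, SE 0.14, adjusted p = 0.043). Same-numbered null pools deviated together, and with the pool number as a replicate block limma called 2 members in null glands, Ndufaf4 (adjusted p = 0.0097) and Uqcrb (adjusted p = 0.019). The call in wild type glands was lost in 7 of 12 fits that left out 1 array (pool 2 or 3 of either genotype at 24 h, null pool 3 or wild type pool 1 or 2 at 8 h, adjusted p up to 0.17). It was also lost in 5 of 10 other settings, namely no filter (adjusted p = 0.059), a prior with no trend (0.051), quantile normalization (0.079), centring (0.065) and only the arrays compared (0.068). Its other probe set was at -0.11 in null and -0.30 in wild type glands (adjusted p = 0.59 and 0.14).

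**Figure D5:**
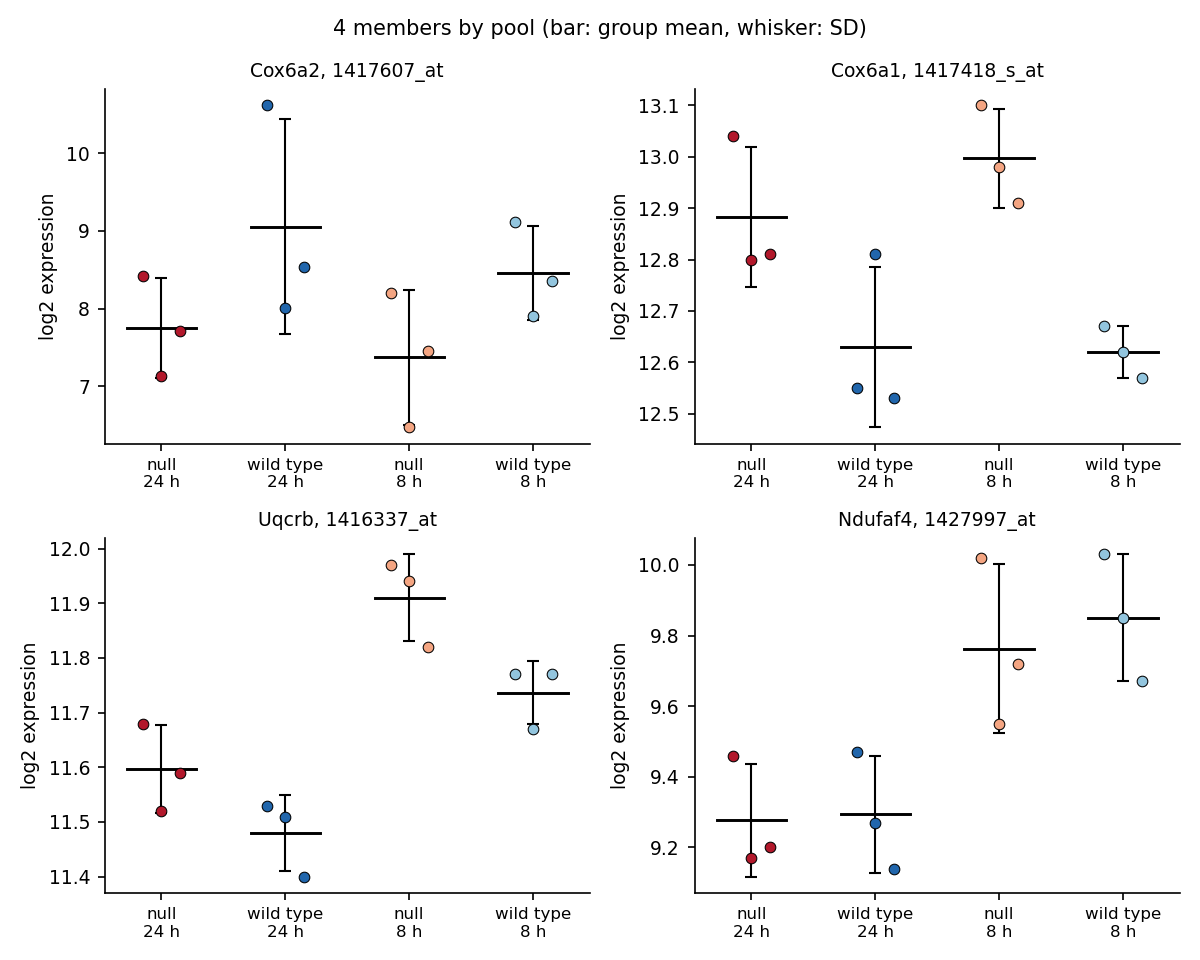
Log2 expression of Cox6a2, Cox6a1, Uqcrb and Ndufaf4 (1 probe set each) by group. Points are pools, bars are group means and whiskers SD (n = 3), and the axes differ and do not start at 0. Cox6a2 is spread widely within groups, Cox6a1 is apart between genotypes at 8 h, and Uqcrb and Ndufaf4 are lower at 24 h than at 8 h in both genotypes.

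Probe sets of the same gene mostly had the same sign in the genotype comparisons. Of 38 member genes with 2 or more tested probe sets, all probe sets had the same sign in 33 at 24 h and in 30 at 8 h, against 20 for time in null and 23 for time in wild type glands. Of 55 members with a mean above 12 on the log2 scale, 55 lay above 0 at 24 h and 54 at 8 h, with medians of 0.16 and 0.21. The 550 other probe sets of that brightness, without the mitochondrial lists and brown adipocyte markers, had medians of -0.04 at both times.

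Chain genes outside the rule and genes of neighbouring mitochondrial pathways were set beside the members. For genotype, 13.7% of all tested probe sets at 24 h and 15.6% at 8 h had an unadjusted p below 0.05. By limma 1.11% and 3.07% of all were called. Cytochrome c (Cycs) and chain subunits outside the rule (Cyc1, Cox8a, Cox8b and Cox7a1) had medians of 0.21 at 24 h and 0.26 at 8 h over 9 probe sets. Of these 0 were called (3 and 6 at an unadjusted p below 0.05). Cox8b and Cox7a1 were also on the list of brown adipocyte markers. Cox7a1, the form of subunit 7a in muscle and brown fat, was at 0.69 at 24 h and 1.18 at 8 h (adjusted p = 0.41 and 0.10). Citric acid cycle genes had medians of 0.19 and 0.16 over 24 probe sets. Of these, Idh3b, a subunit of isocitrate dehydrogenase (0.75, adjusted p = 0.039), and Suclg1, a subunit of succinyl-CoA ligase (0.58, adjusted p = 0.046), rose at 8 h and 0 were called at 24 h (7 at an unadjusted p below 0.05). Fatty acid oxidation genes had medians of 0.18 and 0.16 over 21 probe sets, with 0 called for genotype (5 and 7 at an unadjusted p below 0.05).

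ATP synthase genes, the step after the respiratory chain, had medians of 0.10 at 24 h and 0.09 at 8 h over 28 probe sets, with 0 called (5 and 6 at an unadjusted p below 0.05). Mitochondrial ribosomal proteins, which make the subunits encoded in mitochondrial DNA, had medians of 0.06 and 0.05 over 130 probe sets, and 1 of these rose at 8 h, Mrpl24 (0.26, adjusted p = 0.043). Regulators of mitochondrial biogenesis had medians of 0.04 and 0.01 over 23 probe sets with 0 called (0 and 3 at an unadjusted p below 0.05). Among them Ppargc1a, a coactivator of mitochondrial genes, was at -0.09 and -0.07, Esrra at 0.15 and 0.04, Nrf1 at -0.17 and -0.07, Gabpa at 0.04 and 0.22, and the mitochondrial transcription factor Tfam at -0.05 and -0.01. Over time, the fatty acid oxidation gene Acaa2 rose in wild type glands (0.90, adjusted p = 0.042). Of the mitochondrial ribosomal proteins, Mrpl9 rose at 24 h in null (0.50) and wild type glands (0.57), Mrpl52 fell in null glands, and Mrps6 and Mrpl50 fell in wild type glands. The pool pattern of the members was also seen in these lists. Null pool 1 had the highest average of the null pools at both times in each list. Wild type pool 3 had the lowest of the wild type pools, tied with pool 2 for ATP synthase at 8 h. For citric acid cycle genes these deviations were 0.30 and -0.25 at 24 h and 0.24 and -0.21 at 8 h. For mitochondrial ribosomal proteins they were 0.12 and -0.07, and 0.18 and -0.08. Differences of these lists from the members were not tested.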

How the data were processed

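The authors deposited 1 table of 45101 probe sets on 12 arrays. The deposited values were read as log2 expression because of their range, and no label names a scale. MAS5 is listed in the submitters' processing notes, without a version. How the authors corrected background and normalized is not given in the sources used here. Gene names came from the annotation of the platform, checked against the RefSeq table (GRCm38.p6), and only those with 1 symbol were named.

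The test was that of limma 3.58.1 under R 4.3.3 (lmFit on 4 group means over 12 arrays, eBayes with a trended prior, 8 residual degrees of freedom, two-sided), with Benjamini-Hochberg adjustment over 23709 probe sets above the array median on at least 3 arrays. Adjusted p below 0.05 was called. SE is the moderated standard error. The calculation was tested on simulated data. The labels call the pools biological replicates. They do not say what a pool number marks. Deviations of same-numbered null pools at 24 h and 8 h had correlations between 0.26 and 0.52 over the 3 pairs. The main fit had no block, and for time in null glands a fit with pool number as a replicate block is given beside it. That block was fitted over all 12 arrays. In the other comparisons at least 1 pair was under 0.1.

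The members and gene lists were chosen with earlier results of these data known. Named members were those called, the 2 largest genotype differences of each role, core, complex II and isoform genes, and a few with the smallest p, chosen after their values were seen. Motifs were searched as short cores. Alternatives covered the filter, the prior, normalization, array weights, the arrays fitted, a replicate block, 1 probe set per gene and leaving out each array; the shares of all probe sets without 1 array, and the Uqcr10 values set to the array median, were added after seeing the data. The number of arrays limits the precision. Figures were drawn with matplotlib 3.10.9.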

Additional observations from a re-analysis of the deposited data

Results flagged for a closer look

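The genotype difference of Uqcr10 changed between the times at 2 of its probe sets, by a test of the difference itself. The difference (null minus wild type) was smaller at 24 h than at 8 h, with a change of -3.51 (log2, SE 0.42, limma adjusted p = 0.013) at one and -2.89 (SE 0.34, adjusted p = 0.013) at the other. At the first, all 3 wild type arrays of 8 h lay under the median of their array, and with these values at the median the change was -2.98. Both carry the name of the same gene and are not taken as independent. The brightest Uqcr10 probe set was not called in any comparison.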

How the results depend on the processing

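The 2 Uqcr10 calls at 8 h, over time in wild type glands and on the change between times were kept in all 12 fits that left out 1 array (adjusted p up to 0.00026, 0.0036 and 0.049) and under every other setting that tested these probe sets. With 1 probe set per gene they were not tested, and 0 members were called at 8 h (2.82% of all genes tested were), 0 for time in null (4.77% of all), 1 for time in wild type glands (5.41% of all) and 0 for the change between times (0.0833% of all). Members called for genotype at 8 h numbered 22 with array weights (17.2%, against 16.9% of all), 4 with only the arrays compared (3.12%, against 3.37%) and 14 with a replicate block (13 higher and 1 lower, 10.9% against 4.39%), and 2 to 3 leaving out 1 array (1.35% to 3.75% of all). At 24 h they numbered 2 with a replicate block (1 higher and 1 lower, 1.56% against 2.03%). The lower one was Cox6a2 at both times (-1.31 at 24 h and -1.08 at 8 h, adjusted p = 0.039 and 0.049), though pool numbers were not taken as pairs between genotypes. At 24 h they numbered 0 to 1 leaving out 1 array (1 without wild type pool 2 of 24 h). For time in null glands they numbered 0 with quantile normalization, centring or only the arrays compared (3.39%, 3.59% and 1.47% of all), 9 with array weights (7.03%, against 24.4% of all), 2 with a replicate block (1.56%, against 7.03%) and 0 to 2 leaving out 1 array (2 without wild type pool 3 of 8 h, 0 without null pool 2 or 3 of 24 h or any null pool of 8 h). For time in wild type glands they numbered 5 with a replicate block (3.91%, against 7.66% of all), 2 in the 5 settings that lost Ndufaf4 (no filter, no trend, quantile normalization, centring and only the arrays compared) and 2 to 3 leaving out 1 array, and for the change between times 2 in each. The members' median ran from 0.08 to 0.19 at 24 h and from 0.10 to 0.23 at 8 h leaving out 1 array, and was 0.15 at 24 h and 0.18 at 8 h with quantile normalization and 0.18 and 0.19 with centring. The causes were not tested.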

Other observations

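Of the 5 genes on either side of Uqcr10 on chromosome 11, 7 had tested probe sets, 10 in all, and 2 were called for genotype at 8 h. Lif, a cytokine of the interleukin 6 family, fell by 0.64 (log2, limma adjusted p = 0.0083). A probe set of Nipsnap1, which encodes a mitochondrial protein, rose by 0.68 (adjusted p = 0.020), while its other probe set was at -0.08 (adjusted p = 0.79). The size of 0.68 was the largest among these neighbours, beside 4.51 and 3.57 for the 2 Uqcr10 probe sets.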
